A study of Mus musculus with 12 samples.

Results

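Most histone variants are encoded by genes that lie outside the large histone clusters, and many of these genes are expressed throughout the cell cycle. Here 10 histone variant genes were followed among the 47642 genes listed: H2afy and H2afy2 (macroH2A1 and macroH2A2), H2afx (H2A.X), H2afz and H2afv (H2A.Z), H2afj (H2A.J), H3f3a and H3f3b (H3.3), H1f0 (linker histone H1.0) and Cenpa (the centromeric H3 variant). The genes were taken by symbol, and the group was selected on the normalized counts of H2afy2, which are lower in both knockouts than in wild-type cells, so the values of H2afy2 in the comparisons with wild-type cells are given as a description with no test. RNA-seq had been performed on mIMCD3 cells, an epithelial line from the mouse inner medullary collecting duct, in 12 libraries, 4 each of wild-type cells (WT), of Pkd1-/- cells and of Pkd2-/- cells. All libraries come from cells that carry the early region of SV40, a viral sequence that keeps them dividing, and were collected 4 days after confluency. Each knockout is 1 clone, edited by CRISPR at Pkd1 or by TALEN at Pkd2, and 4 of the 6 dishes grown per genotype were sequenced, chosen for RNA purity. The p-values therefore measure the spread between dishes of a line, and the effect of the deletion and the difference between clones cannot be told apart.

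Nucleosomes wrap DNA around an octamer of H2A, H2B, H3 and H4, and variants replace the canonical forms at particular places. MacroH2A carries a large globular macrodomain behind its H2A-like part and is found on silent chromatin and the inactive X chromosome, H2A.Z and H3.3 mark promoters and other places of histone turnover, and H2A.X is phosphorylated around DNA breaks. H1.0 binds the linker DNA between nucleosomes and accumulates in differentiated and resting cells, and CENP-A marks the centromere. MacroH2A1 and macroH2A2 come from separate genes, as do both forms of H2A.Z, while H3f3a and H3f3b encode the same protein.

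The libraries held 25966273 to 28027792 normalized counts, from an estimated 23188147 to 30342290 reads. Pkd1 was listed at 682 to 883 normalized counts in WT and at 30 to 49 in Pkd1-/- cells, while Pkd2 was at 3438 to 4467 in WT and 3855 to 4135 in Pkd2-/- cells. The deletion in Pkd2 lies inside the gene, so that its summed count does not check the label. Of the 15 markers of collecting duct and epithelium, Pax8, Epcam, Cdh1, Krt8 and Krt18 were at 3937 normalized counts or more in the mean of every genotype, but Aqp2, the water channel that defines principal cells, was at 0 in all 12 libraries and Avpr2 reached a mean of 0.50 at most. Of the 13 that could be tested, 1 rose and 3 fell in Pkd1-/- cells, and 8 rose and 2 fell in Pkd2-/- cells. Over all genes tested, 27.1% and 42.3% passed an adjusted p under 0.05 in either direction. Gata3, a transcription factor of the duct lineage, fell from a mean of 227 in WT to 48.5 in Pkd1-/- cells (log2 difference -2.20, limma, adjusted p = 6.34e-10) and was at 354 in Pkd2-/- cells. Tfcp2l1 and Cdh16 fell by 0.36 and 0.34 in Pkd1-/- cells (limma, adjusted p = 0.00398 and 4.64e-05). In Pkd2-/- cells their means were 123% and 114% of WT, and those of Epcam and Hoxb7 were 77.0% and 69.4% of WT. Elf5, at 12 or less in all libraries, rose in Pkd1-/- cells (limma, adjusted p = 0.007). Summed markers of fibroblasts (8 genes) lay at 32 to 58 in WT, 89 to 103 in Pkd1-/- and 15 to 141 in Pkd2-/- cells, with Thy1 at 0 throughout. Those of endothelium (5 genes) lay at 0 to 10, with Cdh5 and Kdr at 0, and those of leukocytes (6 genes) at 56 to 74, with Adgre1 and Cd3e at 0 and Ptprc at 5 or less. Most of the leukocyte sum was Cd68, at 58 to 69 in WT, 47 to 65 in Pkd1-/- and 52 to 64 in Pkd2-/- cells. Cd79a was at 1 to 3 in WT, 4 to 12 in Pkd1-/- and 0 to 3 in Pkd2-/- cells. Most of the fibroblast sum in Pkd1-/- cells was Col3a1, a fibrillar collagen, at 62 to 69 there, 3 to 7 in WT and 0 to 42 in Pkd2-/- cells. It rose by 3.62 in Pkd1-/- cells (limma, adjusted p = 0.00359). Pdgfrb was at 4 or less in all libraries. The part of these markers in the levels of the histone variants was not tested.

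All 10 members were expressed in the cells and passed the filter on low values, an average of 1 normalized count or more over the libraries. Per kb of the longest coding transcript, a scale that depends on the length taken, the highest levels in WT cells were those of H1f0 (19930 ± 462 normalized counts per kb, SD, n = 4) and H3f3b (19525 ± 205.5), whose libraries overlapped. H2afz followed at 9539 and H2afv at 4063, then H2afy at 2390.5, Cenpa at 2095, H2afx at 1638, H3f3a at 1009, H2afy2 at 644 and H2afj at 268, with no overlap between neighbours in this order. The length taken was 2046 bases for H2afy and 1466 for Cenpa, while all their annotated exons span 6809 and 5860 bases. Per kb of all exons, H2afy and Cenpa would stand lower in the order. In Pkd1-/- cells H2afy2 moved to the last place at 37.9 normalized counts per kb, and the libraries of H2afx and Cenpa overlapped. In Pkd2-/- cells H3f3b led at 19335 and H1f0 was second at 15136, while H2afy2 (247) and H2afj (217) overlapped, as did Cenpa (1631) and H2afx (1548).

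**Figure D1:**
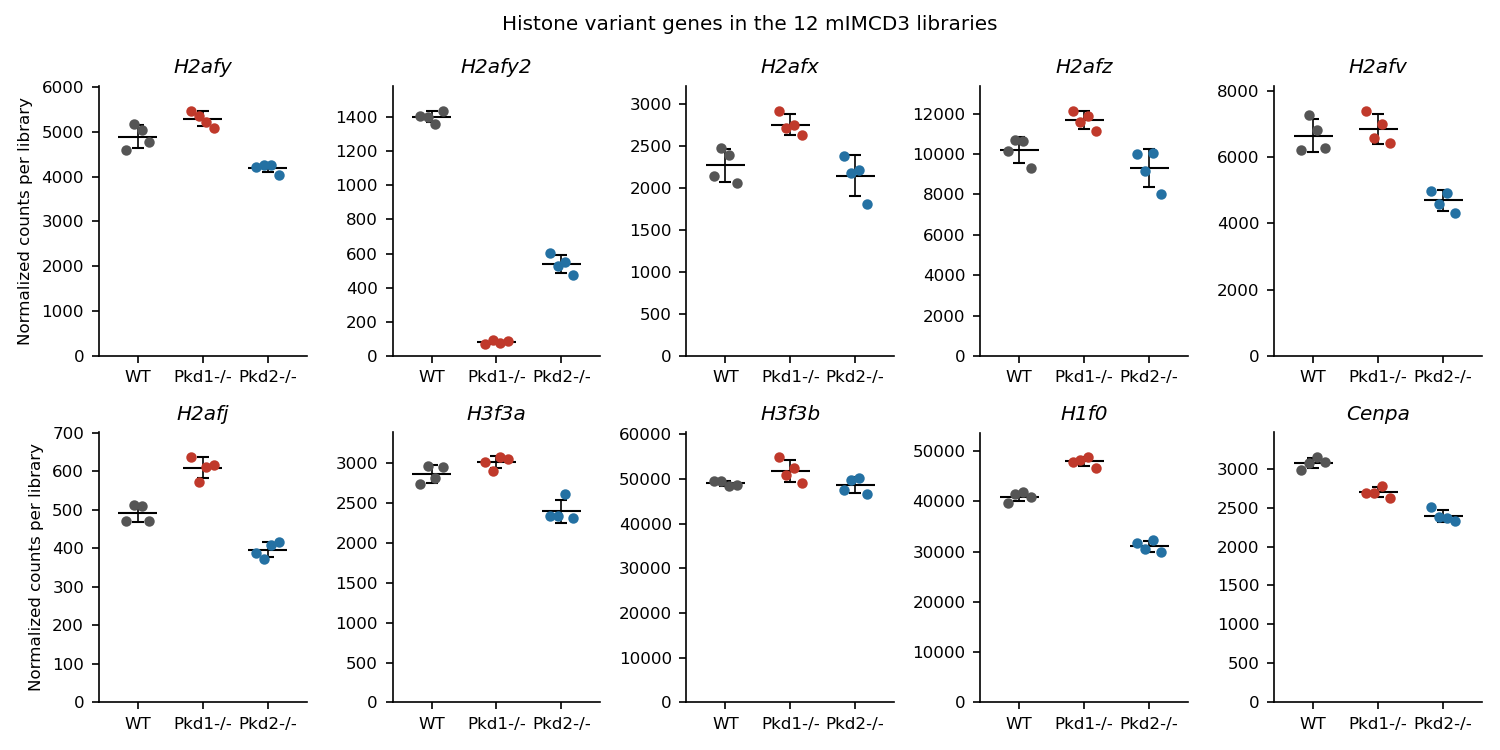
Normalized counts of the 10 histone variant genes (vertical axes, each from 0) in the 4 libraries of WT, Pkd1-/- and Pkd2-/- cells, with points for libraries, a line for the mean and bars for the SD. H2afy2 stood at 1359 to 1438 in WT, 72 to 94 in Pkd1-/- and 476 to 601 in Pkd2-/- cells, while the means of the other genes differed between genotypes by far smaller factors.

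The 2 macroH2A genes differed from WT by unlike amounts, and both were lower in Pkd2-/- cells. H2afy2 (chr10:61738665-61784147, minus strand, GRCm38) was at 1408, 1401, 1359 and 1438 normalized counts in the WT libraries, at 72, 94, 76 and 88 in Pkd1-/- cells and at 601, 527, 549 and 476 in Pkd2-/- cells. The 3 genotypes did not overlap, and Pkd1-/- cells were lowest. The means were 1401.5 ± 32.6 in WT, 82.5 ± 10.2 in Pkd1-/- and 538 ± 51.8 in Pkd2-/- cells (SD, n = 4), which is 5.89% and 38.4% of WT, or differences of -4.08 and -1.38 on the scale of log2(normalized count + 1). By the size of that difference H2afy2 ranked number 118 of 18552 genes in Pkd1-/- and number 1403 in Pkd2-/- cells. Since the gene was chosen for its fall in both, these ranks are a description only. The contrast between the knockouts was not used to choose the gene, and there H2afy2 was 2.69 ± 0.09 (SE) higher in Pkd2-/- than in Pkd1-/- cells (limma, adjusted p = 1.75e-14).

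H2afy, which encodes macroH2A1 (chr13:56073619-56136361, minus strand), was at 4589, 5169, 5042 and 4764 in WT, at 5474, 5360, 5225 and 5086 in Pkd1-/- and at 4213, 4264, 4259 and 4044 in Pkd2-/- cells. The Pkd1-/- libraries overlapped those of WT, and all Pkd2-/- libraries lay below both. H2afy differed by 0.11 ± 0.05 in Pkd1-/- cells (limma, adjusted p = 0.0784) and fell by 0.22 ± 0.05 in Pkd2-/- cells (limma, adjusted p = 0.000662), and the difference between Pkd2-/- and Pkd1-/- cells was -0.33 ± 0.05 (limma, adjusted p = 6.81e-06). The sum of both genes was 6292.5 ± 248 normalized counts in WT, 5369 ± 165 in Pkd1-/- and 4733 ± 142.5 in Pkd2-/- cells, again without overlap. This sum and the shares below include the values of H2afy2 that chose it, so against WT they are a description. In Pkd1-/- cells the mean of H2afy alone was 108% of WT, so the lower sum there comes from H2afy2. Per kb of the longest coding transcript, H2afy2 made up 21.3% ± 1.15 of the macroH2A RNA in WT, 1.45% ± 0.20 in Pkd1-/- and 10.8% ± 0.80 in Pkd2-/- cells (SD, n = 4). The share depends on the length used for H2afy, whose annotation includes transcripts with retained introns: per kb of all annotated exons it was 47.3% in WT, 4.66% in Pkd1-/- and 28.6% in Pkd2-/- cells. The order of the genotypes was the same with either length. Splice forms of macroH2A1 were not analysed here.

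A processed pseudogene, H2afy3, is a near copy of H2afy2 with 95.9% identity over its coding sequence (1073 of 1119 aligned positions), against 68.4% to H2afy. The following stretch is coding bases 133 to 222 of H2afy2 from GENCODE transcripts, with the 6 differing bases in capitals. It was taken as the ungapped stretch of 90 bases, starting at a codon, with the most differences.
H2afy2: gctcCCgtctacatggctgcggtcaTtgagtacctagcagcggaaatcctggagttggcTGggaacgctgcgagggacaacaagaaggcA
H2afy3: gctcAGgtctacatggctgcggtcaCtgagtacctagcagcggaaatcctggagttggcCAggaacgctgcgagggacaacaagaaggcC
H2afy3 was at 37, 44, 41 and 56 normalized counts in WT, at 0, 1, 2 and 0 in Pkd1-/- and at 6, 8, 20 and 19 in Pkd2-/- cells, that is 2.63% to 3.89% of the H2afy2 count of the same library in WT, 0% to 2.63% in Pkd1-/- and 0.998% to 3.99% in Pkd2-/- cells. It was low where H2afy2 was low: at least 14.8-fold lower in Pkd1-/- cells, counting up to 3 counts per library for the listed values, and 3.36-fold lower in Pkd2-/- cells. Of the 2126 stretches of 50 bases in H2afy2, 142 also occur in H2afy3, 44 in Pvt1 and 186 in Aifm2, which overlaps H2afy2 on the opposite strand. Pvt1, a long noncoding RNA gene, overlaps H2afy3 on the opposite strand and shares 60 stretches with it. Its means were 318, 303.5 and 358.5 in WT, Pkd1-/- and Pkd2-/- cells. Reads from these stretches could be counted for any gene that shares them, and the strand setting and the handling of reads with several matches are not given in the sources used here. Aifm2 itself differed little, with means of 959, 852 and 856 in WT, Pkd1-/- and Pkd2-/- cells.

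The genes around H2afy2 were set beside it over 2 windows. Within 1 Mb, 23 other genes averaging 10 normalized counts or more had a median difference of -0.05 in Pkd1-/- and -0.15 in Pkd2-/- cells. In Pkd1-/- cells 3 of them passed the fold threshold downwards, with differences of -1.06 for Tspan15 (a membrane scaffold protein), -2.24 for Fam241b and -1.80 for Gm5424, all 3 within 500 kb on the upstream side. Fam241b and Gm5424 were low, averaging 16.2 and 17.8 normalized counts over the libraries. The 11 genes within 500 kb had a median of -0.22 in Pkd1-/- cells, where 1 of them was above 0. In Pkd2-/- cells Tspan15 differed by -0.68, and those past the fold threshold were Stox1 (-1.47) and Slc29a3 (-1.69), both near the edges of the window. Stox1 averaged 12 normalized counts. The fold threshold was passed in either direction by 6.24% of all genes tested in Pkd1-/- and 9.62% in Pkd2-/- cells. The median of the 622 other genes of chromosome 10 was 0.01 in Pkd1-/- and -0.08 in Pkd2-/- cells. The part of the neighbourhood in the values of H2afy2 was not tested.

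**Figure D2:**
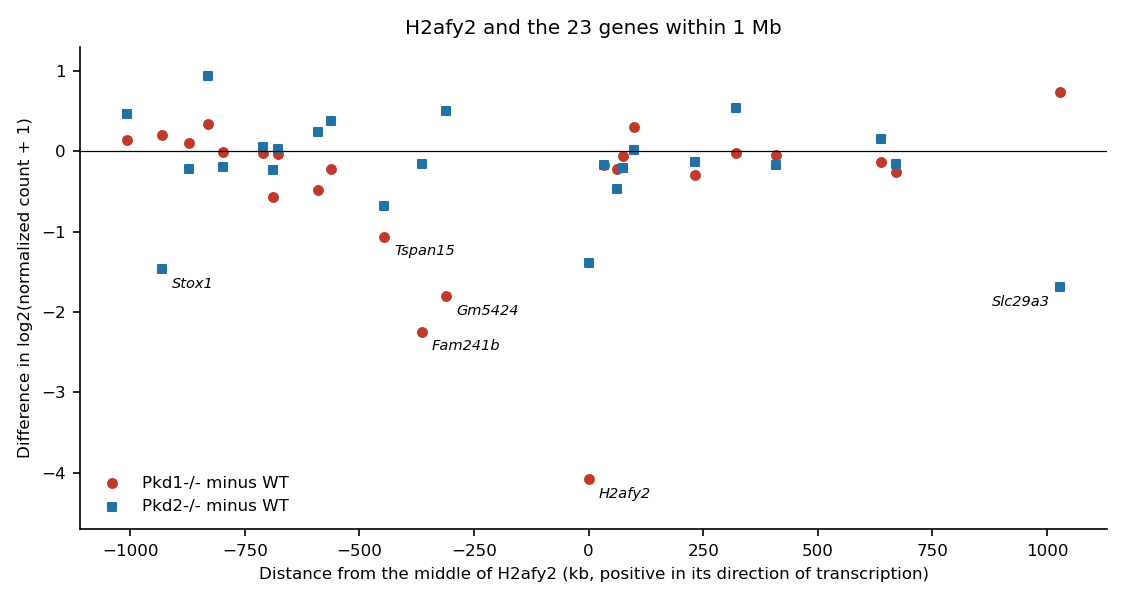
Difference in log2(normalized count + 1) from WT (vertical axis) of H2afy2 and the 23 genes within 1 Mb of its ends, against the distance between gene middles in kb (horizontal axis), for Pkd1-/- (circles) and Pkd2-/- cells (squares). H2afy2 stands at -4.08 and -1.38, the neighbours range from -2.24 to 0.94, and 3 upstream genes lie at or below -1.06 in Pkd1-/- cells.

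The genes most like H2afy2 across the libraries, by Pearson's r of log2(normalized count + 1) over 12 libraries among 13702 genes that average 10 or more, were Ppp1r26 (r = 0.995), Mvb12b (0.993), Jazf1 (0.992), Kcnj16 (0.990) and Serinc2 (0.988). These coefficients mostly follow the 3 genotype levels and are given as a description. Ppp1r26 was at 82 to 100 normalized counts in WT, 0 in all Pkd1-/- libraries and 11 to 23 in Pkd2-/- cells, and Kcnj16, a potassium channel subunit, at 1400 to 1572, 134 to 162 and 817 to 968. Among the other members r ranged from -0.68 for H2afx to 0.35 for Cenpa.

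Apart from H2afy2, the members differed from WT by less than the fold threshold. In Pkd1-/- cells 4 of the 9 rose (H2afx, H2afz, H2afj and H1f0), 1 fell (Cenpa) and 4 did not pass an adjusted p under 0.05, where 27.1% of all genes tested and 38.6% of the 6237 genes that average 1000 or more passed in either direction (13.6% of all genes upwards and 13.5% downwards). In Pkd2-/- cells 0 rose, 6 fell (H2afy, H2afv, H2afj, H3f3a, H1f0 and Cenpa) and 3 did not pass, where 42.3% of all genes and 60.8% of the abundant ones passed (20.0% of all genes upwards and 22.3% downwards). The members' share, 55.6% in Pkd1-/- and 66.7% in Pkd2-/- cells, was in the latter near that of abundant genes. Of the 9, 0 reached a log2 difference of 1, the study's fold threshold, which 6.24% and 9.62% of all genes passed. The median difference of the 9 was 0.11 in Pkd1-/- and -0.26 in Pkd2-/- cells, beside 0.01 and -0.01 over all genes tested. Both comparisons use the same WT libraries. Between the knockouts, all 8 members that passed were lower in Pkd2-/- than in Pkd1-/- cells, with H3f3b not passing, where 46.3% of all genes and 64.6% of the abundant ones passed in either direction, 21.9% of all genes upwards, 24.3% downwards and 11.8% at the fold threshold. The libraries of the genotypes compared did not overlap for 5 of the 9 in Pkd1-/- cells against WT, for 6 in Pkd2-/- cells against WT and for 8 between the knockouts, where this held for 27.1%, 37.2% and 41.8% of all genes tested. In bulk RNA, fewer cells that express a gene and less RNA per cell cannot be told apart.

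**Figure D3:**
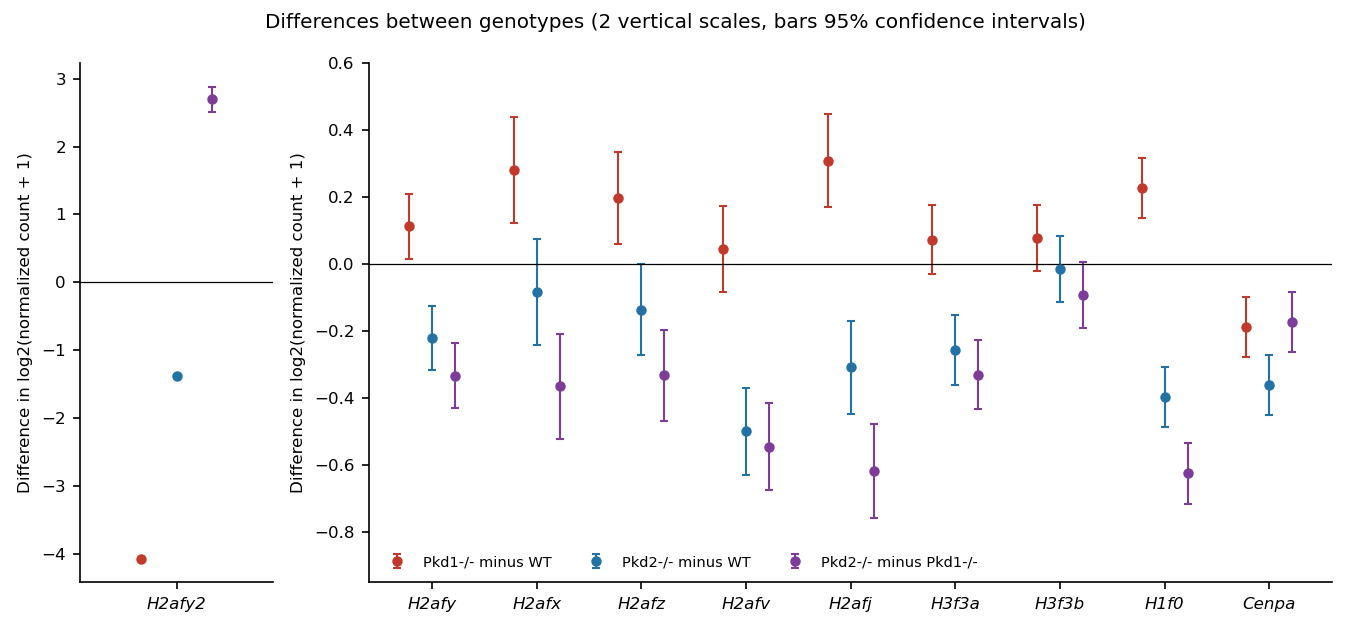
Differences between genotypes in log2(normalized count + 1) (vertical axes, on separate scales for H2afy2 and the other 9 genes), with bars for 95% confidence intervals from limma. H2afy2 has no interval in the comparisons with WT, which chose it. The Pkd2-/- minus Pkd1-/- differences of the other 9 genes lie between -0.62 and -0.09, all below 0.

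The H2A.Z genes H2afz and H2afv changed unequally. H2afz (chr3:137864487-137866922, plus strand) was at 10129, 10711, 10663 and 9287 in WT, at 12147, 11555, 11864 and 11121 in Pkd1-/- and at 9995, 9135, 10059 and 8024 in Pkd2-/- cells. Its Pkd1-/- libraries were all above WT, a rise of 0.20 ± 0.07 (limma, adjusted p = 0.031), and 6 of the 21 alternative settings gave an adjusted p above 0.05, up to 0.109. In Pkd2-/- cells its libraries overlapped WT and the difference was -0.14 ± 0.07 (limma, adjusted p = 0.106, 95% confidence interval -0.27 to 0.0008). H2afv (chr11:6427229-6444443, minus strand) was at 6193, 7253, 6816 and 6280 in WT, at 7397, 6559, 6997 and 6420 in Pkd1-/- and at 4983, 4572, 4910 and 4303 in Pkd2-/- cells. All Pkd2-/- libraries lay below the others, and H2afv fell by 0.50 ± 0.06 against WT (limma, adjusted p = 2.19e-06), while the difference in Pkd1-/- cells was 0.05 ± 0.06 (limma, adjusted p = 0.656, 95% confidence interval -0.08 to 0.17).

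Of the H3.3 genes, H3f3a fell in Pkd2-/- cells. H3f3a (chr1:180800832-180813943, minus strand) was at 2737, 2963, 2811 and 2955 in WT, at 3014, 2911, 3080 and 3053 in Pkd1-/- and at 2334, 2341, 2619 and 2309 in Pkd2-/- cells. The Pkd2-/- libraries were the lowest 4, with a fall of 0.26 ± 0.05 (limma, adjusted p = 0.000307), and the difference in Pkd1-/- cells was 0.07 ± 0.05 (limma, adjusted p = 0.314). H3f3b (chr11:116021912-116027962, minus strand), the far more abundant copy, was at 49515, 49535, 48524 and 48771 in WT, at 54946, 50880, 52411 and 49217 in Pkd1-/- and at 47620, 49882, 50305 and 46628 in Pkd2-/- cells. The genotypes overlapped, with differences of 0.08 ± 0.05 in Pkd1-/- cells (limma, adjusted p = 0.246) and -0.01 ± 0.05 in Pkd2-/- cells (limma, adjusted p = 0.838), and a 95% confidence interval of -0.11 to 0.08 for the latter.

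Since the members of each pair encode the same or nearly the same protein, their balance was compared within each library, which does not depend on the size factor. H2afv gave 39.4% ± 1.17 of the H2A.Z counts in WT, 36.9% ± 0.71 in Pkd1-/- and 33.6% ± 0.92 in Pkd2-/- cells, and H3f3a gave 5.52% ± 0.21, 5.50% ± 0.27 and 4.71% ± 0.19 of the H3.3 counts (SD, n = 4). The log2 ratio of H2afv to H2afz differed by -0.15 between Pkd1-/- cells and WT, by -0.36 between Pkd2-/- cells and WT, and by -0.21 between Pkd2-/- and Pkd1-/- cells, each without overlap between libraries (two-sided exact permutation test, p = 0.0286, adjusted p = 0.0343 over 6 tests). This p is the smallest that 4 libraries against 4 can give. The log2 ratio of H3f3a to H3f3b differed by -0.24 between Pkd2-/- cells and WT and by -0.24 between Pkd2-/- and Pkd1-/- cells (exact permutation test, p = 0.0286, adjusted p = 0.0343 each), and it differed by -0.0052 between Pkd1-/- cells and WT (exact permutation test, p = 0.943).

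Reads of the paralogs can be told apart although the proteins are alike, as the first 90 coding bases of each pair show, with the bases that differ between the paralogs in capitals (19 for H2A.Z and 20 for H3.3).
H2afz: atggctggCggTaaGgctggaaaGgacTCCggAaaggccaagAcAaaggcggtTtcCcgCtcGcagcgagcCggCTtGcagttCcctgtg
H2afv: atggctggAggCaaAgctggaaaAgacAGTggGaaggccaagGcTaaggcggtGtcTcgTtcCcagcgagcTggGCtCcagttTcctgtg
H3f3a: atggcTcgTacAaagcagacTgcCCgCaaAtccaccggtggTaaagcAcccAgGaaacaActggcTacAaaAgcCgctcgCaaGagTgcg
H3f3b: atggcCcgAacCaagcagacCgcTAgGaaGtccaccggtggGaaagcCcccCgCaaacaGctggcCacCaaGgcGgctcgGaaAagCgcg
Over the whole coding sequences, H2afz and H2afv were identical at 304 of 384 positions (79.2%) and H3f3a and H3f3b at 313 of 408 (76.7%), and 0 stretches of 50 bases occurred in both genes of a pair. Other genes share more: 35.4% of such stretches in H2afz transcripts and 27.1% of those in H3f3a transcripts also occur in another annotated gene, mostly Tmcc1 and Gm8203 for H2afz and the overlapping Gm17275 and the copy H3f3c for H3f3a, against 0% for H2afv and 6.86% for H3f3b. H3f3aos, an antisense gene that overlaps H3f3a, had means of 200, 121 and 178.5 normalized counts in WT, Pkd1-/- and Pkd2-/- cells.

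**Figure D4:**
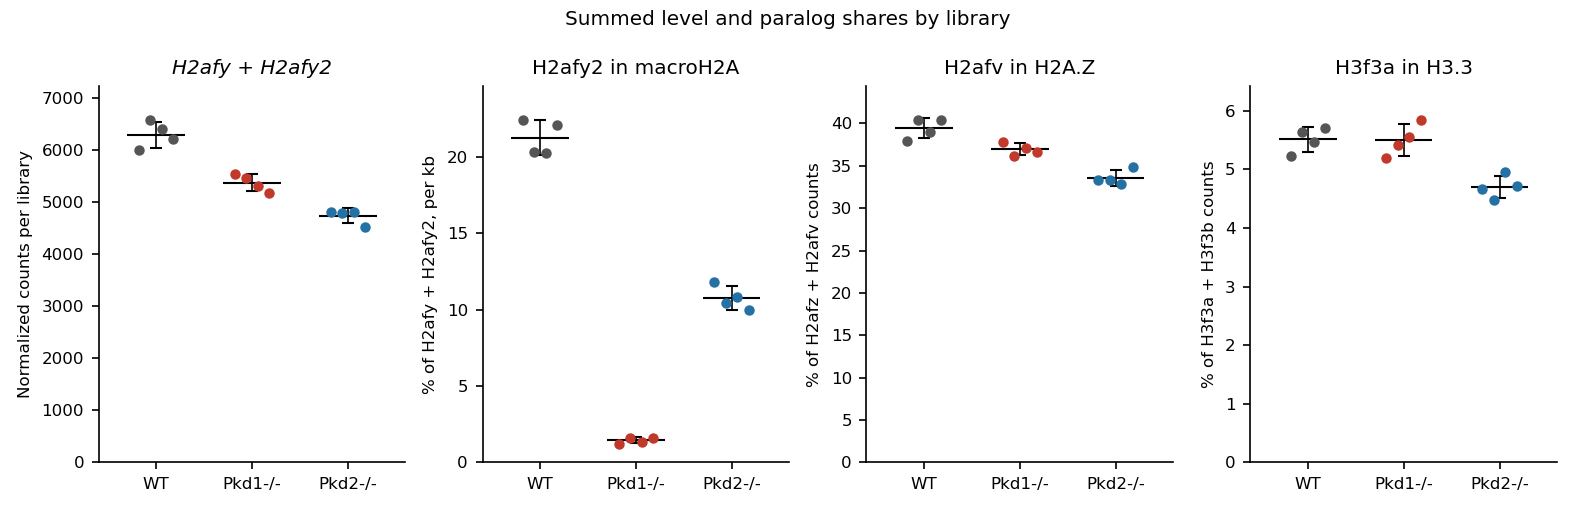
Summed normalized counts of H2afy and H2afy2, and shares (percent, vertical axes from 0) of H2afy2 in macroH2A per kb of the longest coding transcript, of H2afv in H2A.Z counts and of H3f3a in H3.3 counts, in the 4 libraries of each genotype, with lines for means and bars for SDs. The H2afv share averages 39.4% in WT, 36.9% in Pkd1-/- and 33.6% in Pkd2-/- cells, and the H3f3a share 5.52%, 5.50% and 4.71%. The sum and the H2afy2 share include the values that chose H2afy2 and are a description against WT.

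The remaining H2A variants are those of the DNA damage response and H2A.J, an H2A-like variant with its own C-terminal motif. H2afx (chr9:44334694-44336077, plus strand) was at 2145, 2477, 2389 and 2057 in WT, at 2920, 2707, 2745 and 2623 in Pkd1-/- and at 2379, 2173, 2215 and 1805 in Pkd2-/- cells. It rose by 0.28 ± 0.08 in Pkd1-/- cells (limma, adjusted p = 0.00823), with all libraries above WT, and in Pkd2-/- cells, which overlapped WT, the difference was -0.08 (limma, adjusted p = 0.408, 95% confidence interval -0.24 to 0.07). H2afj (chr6:136808244-136810074, plus strand) was at 472, 513, 509 and 472 in WT, at 637, 572, 611 and 616 in Pkd1-/- and at 389, 373, 409 and 416 in Pkd2-/- cells, without overlap between genotypes. H2afj rose by 0.31 ± 0.07 in Pkd1-/- cells (limma, adjusted p = 0.0015) and fell by 0.31 ± 0.07 in Pkd2-/- cells (limma, adjusted p = 0.000857), a difference between the knockouts of -0.62 ± 0.07 (limma, adjusted p = 2.95e-07). Within 1 Mb of H2afj, the 9 other genes at an average of 10 or more had a median of 0.33 in Pkd1-/- cells and of -0.30 in Pkd2-/- cells, near its own differences, while the 689 other genes of chromosome 6 had medians of -0.05 and -0.05. The part of these neighbours in the result was not tested.

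H1f0, the linker histone of resting and differentiated cells and the most abundant member in WT per kb (chr15:79028450-79030504, plus strand), showed opposite shifts in the knockouts. It was at 39656, 41442, 41837 and 40890 in WT, at 47908, 48299, 48820 and 46728 in Pkd1-/- and at 31794, 30569, 32215 and 29840 in Pkd2-/- cells, without overlap between genotypes. It rose by 0.23 ± 0.04 in Pkd1-/- cells (limma, adjusted p = 0.000484) and fell by 0.40 ± 0.04 in Pkd2-/- cells (limma, adjusted p = 4.27e-07), and the knockouts differed by -0.62 ± 0.04 (limma, adjusted p = 6.52e-10). In Pkd2-/- cells another linker histone moved the other way. H1fx (H1.10), which is not among the 10 genes, was at 74, 74, 91 and 65 in WT, at 86, 81, 113 and 100 in Pkd1-/- and at 808, 697, 792 and 571 in Pkd2-/- cells, a rise of 3.22 ± 0.14 in Pkd2-/- cells (limma, adjusted p = 9.96e-13). In Pkd1-/- cells its difference was 0.32 ± 0.14 (limma, adjusted p = 0.1). H1f0 remained far more abundant in all libraries. The 21 other genes within 1 Mb of H1fx had a median of -0.04 in Pkd2-/- cells and a highest difference of 0.81.

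Hist1h1c (H1.2), a linker histone gene of the replication-dependent kind, was at 1003, 1065, 966 and 836 in WT, at 1497, 1524, 1402 and 1451 in Pkd1-/- and at 833, 806, 955 and 724 in Pkd2-/- cells. It rose by 0.61 ± 0.08 in Pkd1-/- cells (limma, adjusted p = 1.07e-05) and fell by 0.22 ± 0.08 in Pkd2-/- cells (limma, adjusted p = 0.0313), where its libraries overlapped WT and 13 of the 21 alternative settings passed (adjusted p up to 0.113). Replication-dependent histone genes lie in clusters, supply chromatin in S phase and give mRNAs without a poly(A) tail. Whether the libraries were made from poly(A) RNA is not given in the sources used here. As a stand-in, the 68 genes with symbols starting Hist1h to Hist4h were taken. They include Hist1h1t, Hist1h2ba, Hist1h2aa and Hist3h2ba, which are also listed below among the other variants and may not be replication-dependent. Among the 68, 43 could be tested and 12 had a mean of at least 10. Of the 43, 7 rose and 0 fell in Pkd1-/- cells, with a median difference of 0.51, and 1 rose and 2 fell in Pkd2-/- cells, with a median of -0.22 over the 43. Of all genes, 27.1% and 42.3% passed. Their summed level was 3135 to 3307 normalized counts in WT, 4149 to 4291 in Pkd1-/- and 2865 to 3277 in Pkd2-/- cells. The most abundant of them, Hist2h2be, did not pass in either knockout, with differences of 0.02 and 0.08 (limma, adjusted p = 0.876 and 0.297). Hist1h2bc rose by 0.72 in Pkd1-/- cells (limma, adjusted p = 2.26e-06), and Hist3h2ba by 0.66 (limma, adjusted p = 0.000698).

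**Figure D5:**
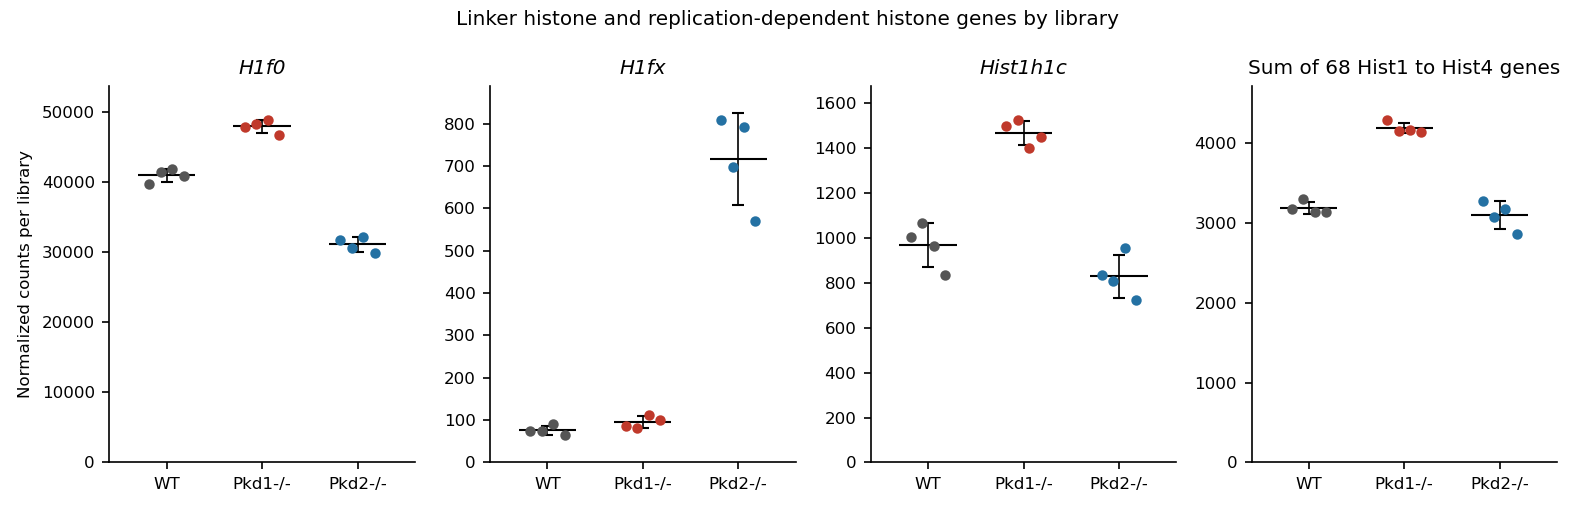
Normalized counts (vertical axes from 0) of the linker histone genes H1f0, H1fx and Hist1h1c and the sum of 68 histone genes taken by symbol (Hist1h to Hist4h) in the 4 libraries of each genotype, with lines for means and bars for SDs. H1f0, Hist1h1c and the sum are highest in Pkd1-/- cells, and H1fx stands at 571 to 808 in Pkd2-/- cells against 65 to 113 in the other libraries.

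Genes of dividing cells were examined beside the members. Of 16 proliferation genes, 11 rose and 0 fell in Pkd1-/- cells, with a median of 0.18, and 5 rose and 2 fell in Pkd2-/- cells, with a median of 0.01. Of abundant genes, 38.6% and 60.8% passed in either direction. Their summed level was 162485 to 171575 normalized counts in WT, 183385 to 189001 in Pkd1-/- and 171528 to 176838 in Pkd2-/- cells. Mki67 (Ki-67) rose by 0.62 in Pkd1-/- and by 0.69 in Pkd2-/- cells (limma, adjusted p = 0.000175 and 3.14e-05), and Top2a, the topoisomerase of dividing cells, by 0.32 and 0.45 (limma, adjusted p = 0.00121 and 2.15e-05). Other genes of the list went the other way in Pkd2-/- cells, where Birc5 was at 73.7% and Mcm5 at 84.6% of the WT mean. There 8 of the 16 had a difference above 0. The part of proliferation in the levels of H2afx, H2afz and the replication-dependent histones was not tested.

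Cenpa, whose product replaces H3 at centromeres (chr5:30666777-30674830, plus strand), was the only member besides H2afy2 to fall in both knockouts. It was at 2980, 3069, 3148 and 3090 in WT, at 2687, 2688, 2782 and 2628 in Pkd1-/- and at 2504, 2373, 2360 and 2328 in Pkd2-/- cells, without overlap between genotypes. It fell by 0.19 ± 0.04 in Pkd1-/- cells (limma, adjusted p = 0.00244) and by 0.36 ± 0.04 in Pkd2-/- cells (limma, adjusted p = 1.31e-06), and the knockouts differed by -0.17 ± 0.04 (limma, adjusted p = 0.0024). In Pkd1-/- cells the 922 other genes of chromosome 5 that average 10 or more had a median of -0.17, about that of Cenpa, and 3 of the 38 within 1 Mb were above 0, with a median of -0.34. In Pkd2-/- cells these medians were -0.04 and -0.11. Within 500 kb of Cenpa, 18 genes had medians of -0.40 in Pkd1-/- and -0.29 in Pkd2-/- cells, with 2 and 5 above 0. The part of the chromosome in the fall of Cenpa was not tested. Of 8 genes for loading of CENP-A and for the centromere, 3 rose and 2 fell in Pkd1-/- cells (median 0.03) and 1 rose and 2 fell in Pkd2-/- cells (median -0.06). These counts, too, stand beside 27.1% and 42.3% of all genes. Mis18a, which primes centromeres for new CENP-A, fell in both, by 0.40 in Pkd1-/- and by 0.21 in Pkd2-/- cells (limma, adjusted p = 1.35e-05 and 0.00382), and Hjurp, the CENP-A chaperone, had differences of -0.03 and -0.11 (limma, adjusted p = 0.749 and 0.12). Cenpb, which binds centromeric satellite DNA, rose by 0.39 in Pkd2-/- cells (limma, adjusted p = 2.73e-06).

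Chaperones and exchange factors of the variants stayed under the fold threshold. Their counts and those of the lists that follow stand beside the 27.1% of all genes and 38.6% of abundant genes that passed in Pkd1-/- cells and the 42.3% and 60.8% in Pkd2-/- cells. Nothing particular to a list is read from them. Among 12 genes of H2A.Z exchange, 3 rose and 0 fell in Pkd1-/- cells (median 0.07), and 5 rose and 2 fell in Pkd2-/- cells (median 0.04). Srcap, the motor of the complex that deposits H2A.Z, was low, at 42 to 57 normalized counts in WT, and rose by 0.91 in Pkd2-/- cells (limma, adjusted p = 0.00403), and Ino80, the motor of a related remodeller, rose by 0.62 (limma, adjusted p = 1.5e-05). Among the 6 genes of H3.3 deposition, 3 rose in Pkd1-/- cells (median 0.19) and 2 in Pkd2-/- cells (median 0.13), and 0 fell in either. Of these, Cabin1 (a subunit of the HIRA complex) rose by 0.22 in Pkd1-/- cells (limma, adjusted p = 0.0202, passing under 17 of the 21 alternative settings) and Atrx, which deposits H3.3 with Daxx, by 0.36 in Pkd2-/- cells (limma, adjusted p = 0.00907, passing under 20). Among 8 chaperones and assembly factors of H3-H4, 5 rose and 1 fell in Pkd1-/- cells (median 0.16), and 2 rose and 1 fell in Pkd2-/- cells (median 0.07). In this list Chaf1b, a subunit of the CAF-1 complex, fell by 0.29 in Pkd1-/- cells (limma, adjusted p = 0.000291), and Asf1a rose by 0.31 in Pkd2-/- cells (limma, adjusted p = 0.000257).

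Of 6 chaperones of H2A-H2B, 3 rose and 0 fell in each knockout, with medians of 0.18 and 0.24. This share is not above that of abundant genes in Pkd2-/- cells. Ncl (nucleolin) rose by 0.61 in Pkd2-/- cells (limma, adjusted p = 1.58e-08) and Ssrp1, a subunit of the FACT complex, by 0.56 (limma, adjusted p = 2.12e-09). Of 8 partners and splicing regulators of macroH2A, 2 rose and 2 fell in Pkd1-/- cells (median 0.08), and 4 rose and 1 fell in Pkd2-/- cells (median 0.12). Mbnl2, a splicing factor, fell by 0.43 in Pkd1-/- cells and rose by 0.28 in Pkd2-/- cells (limma, adjusted p = 0.000273 and 0.00698), and Qk, a splicing factor known to act on H2afy transcripts, rose by 0.44 in Pkd2-/- cells (limma, adjusted p = 0.000123). Of 8 genes for the processing of histone mRNA, 1 rose and 1 fell in Pkd1-/- cells, and 2 rose and 1 fell in Pkd2-/- cells. Casp8ap2 rose by 0.57 in Pkd2-/- cells (limma, adjusted p = 2.83e-05), while its rise of 0.24 in Pkd1-/- cells (limma, adjusted p = 0.0472) was less stable. It passed under 11 of the 21 alternative settings, with an adjusted p of up to 0.164. Npat, the activator of replication-dependent histone genes, rose by 0.30 in Pkd2-/- cells (limma, adjusted p = 0.000845).

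Among genes of these pathways that are no copies or linker histones, those past the fold threshold were in the Eya family, tyrosine phosphatases that act on H2A.X as well as transcriptional co-activators. Eya4 was at 174, 145, 184 and 194 in WT, at 400, 522, 439 and 490 in Pkd1-/- and at 3, 4, 3 and 4 in Pkd2-/- cells, a rise of 1.405 ± 0.15 and a fall of 5.28 ± 0.15 (limma, adjusted p = 1.07e-06 and 4.35e-15). Eya1 went the same ways at a higher level, with means of 3000.5, 5298.5 and 1983 in WT, Pkd1-/- and Pkd2-/- cells, a rise of 0.82 and a fall of 0.60 (limma, adjusted p = 2.54e-09 and 8.91e-08). Eya2 was low, at 3 to 12 in WT, 12 to 22 in Pkd1-/- and 0 in all Pkd2-/- libraries, and Eya3 had differences of 0.04 and 0.07 (limma, adjusted p = 0.644 and 0.366). Over the 12 genes of H2A.X signalling, 5 rose and 0 fell in Pkd1-/- cells (median 0.17), and 4 rose and 3 fell in Pkd2-/- cells (median 0.09), and the kinases Atm and Atr rose by 0.59 and 0.37 in Pkd2-/- cells (limma, adjusted p = 0.00389 and 0.000639). Of 18 other variant and linker histone genes, 9 were too low to be tested, among them the testis forms H1fnt and Hils1 at 0. Of the 9 tested, 2 rose and 1 fell in Pkd1-/- cells and 1 rose and 2 fell in Pkd2-/- cells, the falls of H2afy3 included. The 2 that rose in Pkd1-/- cells, Hist1h1c and Hist3h2ba, are also counted above among the genes taken by symbol.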

How the data were processed

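RNA from WT, Pkd1-/- and Pkd2-/- mIMCD3 cells was sequenced in 12 libraries. Read trimming (Trim Galore), alignment to mm10 (GRCm38, HISAT2) and counting per gene (htseq-count) were done by the authors. The deposited values are score values: the counts of each library, which the authors divided by the size factor from DESeq2 and rounded to whole numbers. They are not read counts, so methods for read counts were not used, although the planned design allowed for them. All sample columns of the table were used, leaving 0 unused, and 0 pairs of libraries were identical. Of 47642 identifiers, 47223 were found in GENCODE release M21 (GRCm38), which gave symbols, positions, transcript lengths and sequences, and 419 were not found. The normalized value of 1 read per library was estimated from the gaps between low values, giving the estimated reads. A listed 0 is compatible with up to 3 counts, which covers counting error only.

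Differences were tested with limma 3.58.1 in R 4.3.3 (lmFit and eBayes with a trend) on log2(normalized count + 1), for 18552 genes that average 1 or more, with all 12 libraries in 1 model. Two-sided p-values were adjusted over all genes of a comparison (Benjamini-Hochberg). Genes passed at an adjusted p under 0.05, and the fold threshold was a log2 difference of 1. Values after ± are SDs for levels and SEs for differences. A log2 difference with 1 added to each count understates the change of low genes. For ratios of paralogs, exact permutation tests (two-sided) were run in scipy 1.17.1. The limma fit, but not the permutation test, was run beforehand on simulated data with known changes. Replicate numbers in the labels were checked as pairs: of 12 pairs with the same number, 2 had a correlation of their deviations over 0.1, so that the numbers were not used as pairs.

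The 10 members and all gene lists were chosen with earlier results of these data known. The genes named were the members, in each pathway list the genes past the fold threshold or otherwise at most 2 with the largest difference, the 5 genes most like H2afy2, near copies, and the 4 most abundant genes with symbols starting Hist1h to Hist4h. Exceptions named after their values were seen are Aifm2, Pvt1, H3f3aos and the neighbours of H2afy2, Eya1, Eya3, Atm, Atr, Hjurp, Birc5, Mcm5 and, among the cell type markers, the epithelial genes, Elf5, Col3a1, Pdgfrb, Ptprc, Cd68, Cd79a, Thy1, Cdh5, Kdr, Adgre1, Cd3e and Avpr2, and H1fnt and Hils1. The alternatives were other pseudocounts (0.5 and 5), filters (none and a mean of 10) and scalings, a model of only the genotypes compared, no trend, a replicate block, and leaving out each library.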

Additional observations from a re-analysis of the deposited data

Results flagged for a closer look

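The knockouts were compared with each other in the same model as with WT, and 9 of the 10 members and H1fx differed between them at an adjusted p under 0.05 (limma), as did 46.3% of all genes tested. Both effects are measured against the same 4 WT libraries, whose mean drops out of the difference between the knockouts. The log2 difference, Pkd2-/- minus Pkd1-/-, was 2.694 for H2afy2 (adjusted p = 1.75e-14) and 2.902 for H1fx (adjusted p = 2.9e-12), which were higher in Pkd2-/- cells. It was -0.333 for H2afy, -0.365 for H2afx, -0.332 for H2afz, -0.545 for H2afv, -0.617 for H2afj, -0.330 for H3f3a, -0.625 for H1f0 and -0.173 for Cenpa, with adjusted p-values from 6.52e-10 for H1f0 to 0.0024 for Cenpa. For each of these 10 genes the 4 libraries of one knockout all lay on 1 side of those of the other, which held for 41.8% of all genes tested.

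H3f3a in Pkd2-/- cells had 1 library apart from the other 3, at 2619 normalized counts against 2309 to 2341. It was the only one of 36 groups of 4 libraries in which the highest or lowest library stood apart by Dixon's test at the 95% level, and chance alone gives about 1 in 20.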

How the results depend on the processing

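Of 588 values for the members under 21 alternatives, 575 kept their direction and their side of the threshold, 6 lost and 6 gained an adjusted p under 0.05, and 1 changed sign. The last was H3f3b in Pkd2-/- cells, which did not pass and ranged from -0.0315 to 0.0050 without any 1 library, above 0 without Pkd2-/- replicate 4. All 6 losses were for H2afz in Pkd1-/- cells, without the variance trend and without any of WT replicates 1 and 4 and Pkd1-/- replicates 1, 2 and 3, with adjusted p-values of 0.0585 to 0.109. The gains were H2afy in Pkd1-/- cells without WT replicate 2 (adjusted p = 0.0389), H3f3b between the knockouts after rescaling to the upper quartile (0.00903), and H2afz in Pkd2-/- cells under that rescaling (0.0294), with a replicate block (0.0252) and without WT replicate 4 (0.0368) or Pkd2-/- replicate 3 (0.0456). H1fx, which is not among them, passed in Pkd1-/- cells without WT replicate 3 (0.0447). Rescaling to the upper quartile moved the median of all genes by -0.07 to 0.01. The number of members at an adjusted p under 0.05 without any 1 library was 4 to 6 in Pkd1-/- and 6 to 7 in Pkd2-/- cells, H2afy2 not counted, and 9 between the knockouts, H2afy2 counted.

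Within 500 kb of H2afy2 the median in Pkd1-/- cells was -0.2158, against -0.05 within 1 Mb. Without any 1 library, the log2 ratio of H2afv to H2afz ranged from -0.1809 to -0.1318 in Pkd1-/- cells, from -0.3932 to -0.3441 in Pkd2-/- cells and from -0.2407 to -0.1936 between the knockouts, and that of H3f3a to H3f3b from -0.2682 to -0.2179 in Pkd2-/- cells and from -0.2650 to -0.2059 between the knockouts. The H3f3a to H3f3b ratio in Pkd1-/- cells, which did not pass, ranged from -0.0362 to 0.0229 and was above 0 without Pkd1-/- replicates 1 or 2 or WT replicates 2 or 4. With 3 libraries against 4 the smallest exact p is 0.0571, so that these could not pass. With a minimum mean of 10 normalized counts, 739 genes passed the fold threshold in Pkd1-/- cells, against 1158, since fewer genes are tested.

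The replicate numbers were not used as pairs. Correlations of deviations between libraries of the same number ran from -0.07 to 0.20, and 9 of 24 comparisons gave the best match to the own number. Libraries of unlike numbers gave -0.20 to 0.11. The 2 highest, 0.20 and 0.17, were both between replicates 4, so that some shared structure by number remains possible. With the replicate block, 5 and 7 members other than H2afy2 passed in Pkd1-/- and Pkd2-/- cells, and 9 with H2afy2 between the knockouts, and 5322, 8048 and 8782 of all genes. The added member was H2afz in Pkd2-/- cells (-0.1359, adjusted p = 0.0252).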
